A study of Mus musculus with 18 samples.

Results

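Astrocytes hold the ionic and water balance of the cortex through a small set of membrane proteins, and 9 of their genes are described here: Aqp4, Kcnj10, Kcnj16, Gja1, Gjb6, Mlc1, Hepacam, Atp1b2 and Slc4a4. They were taken by name, as genes of potassium, water, gap junction and bicarbonate handling, and all 9 were found among the 21923 genes of the count table and passed the low-count filter that left 13296 genes to test. RNA came from the cortex of male C57BL/6 mice by translating ribosome affinity purification (TRAP), in which an EGFP-tagged ribosomal protein is pulled down with the mRNA on it, and the immunoprecipitated (IP) samples were sequenced. GLUT1 cKO mice (GLUT1 flox/flox;GLAC +/wt in the labels, given by the study as GLUT1 fl/fl;GLAST CreERT2/+) were compared with controls (GLAC +/wt, given as GLUT1 +/+;GLAST CreERT2/+). Both groups carried the inducible Cre of the astrocytic GLAST locus, received the Cre-dependent virus that encodes the tagged ribosomal protein under the hGFAP promoter, and were given tamoxifen as young adults, with RNA collected weeks later from mice kept in the home cage. The groups thus differ in the floxed Slc2a1 alleles, and the tag reports only cells that took up the virus and recombined. The labels list 5 control and 4 cKO IP samples, and 3 control libraries (numbered 11, 15 and 19) and 4 cKO libraries (1, 5, 9 and 17) were analysed. The study left out IP samples with much neuronal RNA and a sample with few reads, so the neuronal levels given here are those of libraries kept on that ground.

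Potassium released by active neurons is taken up by astrocytes through inwardly rectifying Kir channels and the sodium-potassium pump. Water follows through aquaporin-4, which is concentrated on the endfeet around vessels, and gap junctions of connexin 43 and connexin 30 join astrocytes into networks through which ions and metabolites spread. Sodium-bicarbonate cotransport couples this activity to the pH of the cell and of the space around it, while MLC1 and GlialCAM form a complex at astrocyte junctions that is needed for volume control and is mutated in a human leukodystrophy with cysts.

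The 7 IP libraries held 12570309 to 40734343 estimated counts, and the lowest count of any member in any library was 2988, for Kcnj16 in cKO library 1. Counting error is therefore small beside the differences between libraries. All 10 astrocyte markers (among them Aldh1l1, Slc1a3 and Glul) had more than 3 counts in every library, and their summed level lay between 30888 and 48821 CPM (counts scaled to library size) in controls and between 31817 and 62671 CPM in cKO mice. RNA of other cells was present as well, with all 10 neuronal markers above 3 counts in every library and a summed level of 3150 to 3690 CPM in controls and 2601 to 3848 CPM in cKO mice. In a pulldown of this kind fewer tagged cells and less RNA per cell cannot be told apart. Slc2a1, the targeted gene, had 59.5 ± 2.02 CPM (SD, n = 3) in controls and 59.0 ± 2.30 CPM (SD, n = 4) in cKO mice over the whole gene. The change was -0.924% (95% interval -17.4% to 18.8% in edgeR). The paper reports a reduction of Slc2a1 in cKO IP samples by qPCR and by reads from part of its exons, counted in a separate alignment. The whole-gene count did not show that reduction. The table does not separate the deleted exons from the others, and the reason for the difference was not tested. The genotype given to each library rests on its number, and this count did not bear it out. It lay between 56.4 and 61.9 CPM over the 7 libraries, so no grouping of them would have shown that reduction.

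No difference in the 9 genes passed the test between the genotypes. Their changes from control to cKO lay between -15.4% for Slc4a4 and 8.01% for Kcnj16, with 3 of 9 higher and 6 of 9 lower (3 lower when libraries were scaled to the astrocyte markers and 8 with upper quartile scaling). The libraries of the 2 genotypes overlapped for every one of them, and 5.11% of all genes tested had no overlap. In the quasi-likelihood test of edgeR, with p-values adjusted over all genes by Benjamini-Hochberg, 0 of 9 passed an adjusted p of 0.05 (adjusted p = 0.9996 for each), where 6 of the 13296 genes tested, or 0.0451%, did. An unadjusted p under 0.05 was found for none of the 9 and for 343 of the 13296 genes tested. None of the 9 passed with edgeR's exact test, DESeq2 or limma voom. The median log2 fold change was -0.023 over the 9 genes and 0.012 over all genes tested, and the median size of the change, whatever its sign, was 0.033 and 0.16 on the log2 scale. These sizes were not compared at like levels, since all genes tested include many with low counts. The median SE was 0.25 over all genes, and the SE of the 9 lay between 0.13 and 0.20. The 95% intervals, given with each gene, were narrowest for Gja1 (-17.1% to 21.6%) and reached as low as -34.4% for Slc4a4 and as high as 37.4% for Kcnj16. Levels are given as CPM, which are not adjusted for transcript length, and are compared only between libraries of the same gene.

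**Figure D1:**
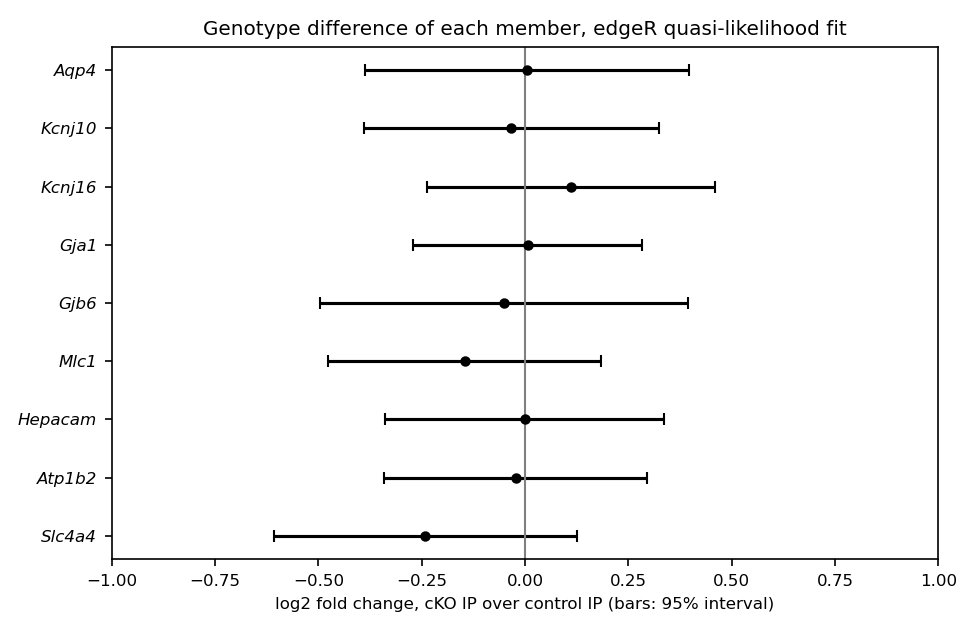
The log2 fold change of each of the 9 genes, cKO IP over control IP, with its 95% interval from edgeR's quasi-likelihood fit (3 control and 4 cKO libraries). All 9 intervals cross 0, and the points lie between -0.24 for Slc4a4 and 0.11 for Kcnj16.

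Kcnj10 encodes Kir4.1, the main potassium channel of astrocytes, and lies on chromosome 1 of GRCm38 from 172341210 to 172374085. It had 434, 423 and 461 CPM in control libraries 11, 15 and 19, and 379, 557, 357 and 425 CPM in cKO libraries 1, 5, 9 and 17. The controls lay close together (coefficient of variation 4.42%), whereas the cKO libraries spread to both sides of them (20.9%), library 5 above all controls and libraries 1 and 9 below them. The change was -2.27% (log2 fold change -0.033, SE 0.16, 95% interval -0.39 to 0.32, adjusted p = 0.9996 in edgeR).

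Kcnj16 encodes Kir5.1, which forms no working channel alone in most cells and joins Kir4.1 in heteromeric channels that respond to pH. It lies on chromosome 11 from 110968033 to 111027968. Its level was 210.2, 138 and 190.3 CPM in control libraries 11, 15 and 19, and 184, 186, 182 and 223 CPM in cKO libraries 1, 5, 9 and 17. All 4 cKO libraries were above the control mean of 180 ± 37.3 CPM (SD, n = 3), but 3 of them lay within the control range, and only control library 15 lay below them all. The change of 8.01% (log2 fold change 0.11, SE 0.16, 95% interval -0.24 to 0.46) became -0.048 on the log2 scale without control library 15.

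Atp1b2 encodes the beta 2 subunit of the sodium-potassium pump, first known as the adhesion molecule on glia, and lies on chromosome 11 from 69599728 to 69605978. It had 1149, 1155 and 992 CPM in the controls and 1253, 912, 1079 and 1084 CPM in cKO libraries 1, 5, 9 and 17. The highest and the lowest value both belonged to cKO mice, with the controls between them. The log2 fold change was -0.023 (SE 0.14, 95% interval -0.34 to 0.30).

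Aqp4 encodes aquaporin-4 and lies on chromosome 18 from 15389394 to 15410982. It had 681, 753 and 555 CPM in the controls and 865, 577, 653 and 567 CPM in cKO libraries 1, 5, 9 and 17. Library 1 stood above every other library and the remaining 3 cKO libraries lay within the control range. The means were nearly equal, 663 ± 99.9 CPM (SD, n = 3) and 665 ± 138 CPM (SD, n = 4), with a log2 fold change of 0.0049 (SE 0.18, 95% interval -0.39 to 0.40). This near equality rested on library 1, since without it the log2 fold change was -0.15.

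Mlc1 encodes the membrane protein of the astrocyte junction complex and lies on chromosome 15 from 88955884 to 88982693. Its level was 1622, 1733 and 1333 CPM in the controls and 1620 (library 1), 1379 (5), 1414 (9) and 1235 (17) CPM in cKO mice. Library 1 was level with control library 11, libraries 5 and 9 lay between that control and the lowest one, and library 17 lay below all controls. The change was -9.63% (log2 fold change -0.15, SE 0.15, 95% interval -0.48 to 0.18). Hepacam encodes GlialCAM, which brings MLC1 to the junctions, and lies on chromosome 9 from 37367356 to 37386572. It had 759, 698 and 610.3 CPM in the controls and 786, 587, 773 and 609 CPM in cKO libraries 1, 5, 9 and 17. Libraries 1 and 9 lay above all 3 controls and library 5 below them, while library 17 was level with control library 19. The cKO mean of 689 ± 106 CPM (SD, n = 4) matched the control mean of 689 ± 74.7 CPM (SD, n = 3) to 3 digits (log2 fold change -6.24e-04, SE 0.15, 95% interval -0.34 to 0.34).

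Gja1, which encodes connexin 43, was the steadiest of the 9 genes. It lies on chromosome 10 from 56377300 to 56390419 and had 1148, 1179 and 1076 CPM in the controls and 1233, 1162, 1120.0 and 1042 CPM in cKO libraries 1, 5, 9 and 17. From the lowest to the highest library it spanned only 0.24 on the log2 scale, and the log2 fold change was 0.0064 (SE 0.13, 95% interval -0.27 to 0.28). Its biological coefficient of variation, the spread between replicates beyond counting, was 0.14 and ranked at the 5.55th percentile of all genes tested, whose median was 0.25. Gjb6, which encodes connexin 30 and lies on chromosome 14 from 57123301 to 57133611, was the most variable of the 9. Its level was 988, 747 and 662 CPM in the controls and 958, 682, 870.0 and 575 CPM in cKO libraries 1, 5, 9 and 17. Both genotypes covered nearly the same wide range, 0.78 on the log2 scale in all, and the log2 fold change was -0.051 (SE 0.20, 95% interval -0.50 to 0.39). Even so, its biological coefficient of variation of 0.20 was below the median of all genes. All 9 genes ranked low, between percentiles 5.55 and 36.1. These values are moderated across genes by edgeR, and the ranks were not taken among genes of like level.

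Slc4a4 encodes NBCe1, the electrogenic sodium-bicarbonate cotransporter, and lies on chromosome 5 from 88793858 to 89239656. It had 323, 440.0 and 273 CPM in control libraries 11, 15 and 19, and 323, 260.2, 285 and 299 CPM in cKO libraries 1, 5, 9 and 17. Control library 15 stood above all others, and the 4 cKO libraries spread around the other controls, library 5 below them, libraries 9 and 17 between them and library 1 level with the upper. The change of -15.4% was the largest of the 9 (log2 fold change -0.24, SE 0.17, 95% interval -0.61 to 0.13, unadjusted p = 0.174 and adjusted p = 0.9996 in edgeR). Without control library 15 it was -0.029 on the log2 scale, and without control library 19 it was -0.39, where its unadjusted p was 0.0431 (edgeR's quasi-likelihood test, adjusted p = 0.9996).

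**Figure D2:**
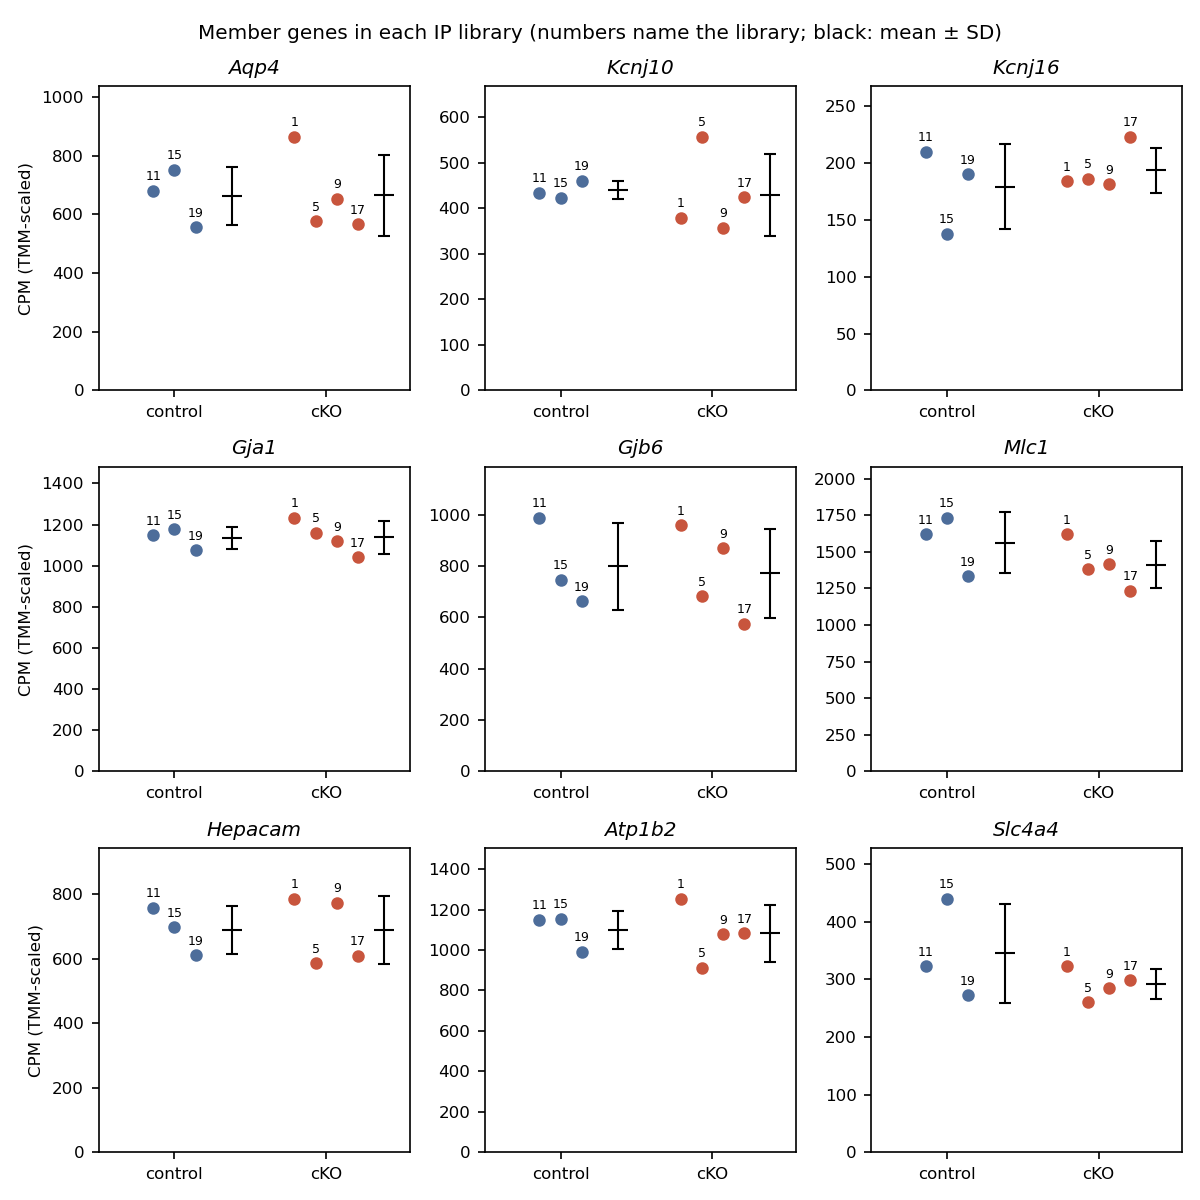
CPM after TMM scaling of the 9 genes in each IP library, 3 control (blue) and 4 cKO (red) libraries numbered as in the text, with mean ± SD of each group in black and axes from 0. In every panel the genotypes overlap; Gja1 is the tightest and Gjb6 among the widest, and control library 15 is the highest for Slc4a4 and the lowest for Kcnj16.

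Across libraries the genes did not all move together. For a description, with Kcnj10 and Kcnj16 left out after their values had been seen to run apart, Aqp4, Gja1, Gjb6, Mlc1, Hepacam, Atp1b2 and Slc4a4 were averaged as deviations of log2 CPM from each gene's own mean. That average was 0.21 in cKO library 1, 0.15 in control library 15 and 0.12 in control library 11, 0.020 in cKO library 9, and -0.16, -0.16 and -0.18 in cKO library 5, control library 19 and cKO library 17. In these TMM-scaled values, all 7 genes were above their own mean in libraries 1 and 11, and all 7 below it in libraries 17 and 19. Both genotypes stood at either end. Since the 7 genes were grouped on these same values, their likeness is no evidence of a common axis. As plain shares of a library's counts, the order did not hold for every gene. Gja1 was then lowest in library 1 (0.108%, against 0.124% in library 5) and Atp1b2 highest in library 17 (0.116%). The 9 genes together made up 0.663% of the counts in library 1, 0.707% in library 11 and 0.650% in library 17. The summed astrocyte markers had nearly the same order as that average, from 62671 CPM in library 1 through 48821 in library 15, 46621 in library 11 and 40856 in library 9 to 32574, 31817 and 30888 CPM in libraries 5, 17 and 19. Aldoc, a glycolytic aldolase, made up 48.2% to 59.7% of that sum, and the other 9 markers without it summed to 18999 to 25231 CPM in libraries 1, 9, 11 and 15 and to 13852 to 16496 CPM in libraries 5, 17 and 19. The neuronal markers were highest, at 3690 to 3848 CPM, in the same 3 libraries 5, 17 and 19 (1435 to 1604 CPM against 1029 to 1282 CPM for the 9 markers without Snap25, the largest of them), and so were the microglial markers (9 of 9 in the table above 3 counts in every library), at 116 to 138 CPM against 69.9 to 87.4 CPM elsewhere. Endothelial markers summed to 18.3 to 44.8 CPM, with 6 of 10 above 3 counts in every library and none at 0 in all, and pericyte markers to 38.1 to 61.7 CPM, with 4 of 5. What part RNA of other cells had in the levels of these genes was not tested.

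The Kir channel genes, set apart for this reason, had other orders. Kcnj10 was highest in library 5 (0.37 above its mean on the log2 scale) and lowest in libraries 9 and 1 (-0.27 and -0.18), and Kcnj16 was highest in library 17 (0.26) and lowest in library 15 (-0.43). Set against the mean of the other 8 genes over the 7 libraries, Pearson's r was -0.60 for Kcnj10 and -0.48 for Kcnj16, and between 0.42 (Slc4a4) and 0.87 (Aqp4) for the other 7. These are descriptions over libraries that share their scaling, and the 7 points do not allow a firm order. Library 5, where Kcnj10 was highest, also had the highest summed oligodendrocyte markers (924 CPM), and library 9, where it was lowest, the lowest (476 CPM). The same held for the neuronal markers (3848 and 2601 CPM) and the microglial markers (138 and 69.9 CPM). Library 5 was also highest for endothelial (44.8 CPM) and pericyte markers (61.7 CPM), for which library 9 was not the lowest. All 10 oligodendrocyte markers had more than 3 counts in every library, and their sum was 789 to 891 CPM in controls and 476 to 924 CPM in cKO mice. A negative log2 fold change was found for 10 of 10 (median -0.39), where 47.7% of all genes tested had one. Of these 10, 0 passed the test after adjustment and 2 (Mobp and Cldn11) had an unadjusted p under 0.05, where 343 of the 13296 genes tested did. Oligodendrocytes are known to carry Kir4.1 as well, and their part in the level of Kcnj10 was not tested. With the oligodendrocyte marker level as a term in the fit, the log2 fold change was 0.20 for Kcnj10 and -0.21 for Aqp4, and again none of the 9 genes passed (edgeR, lowest adjusted p = 0.421).

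**Figure D3:**
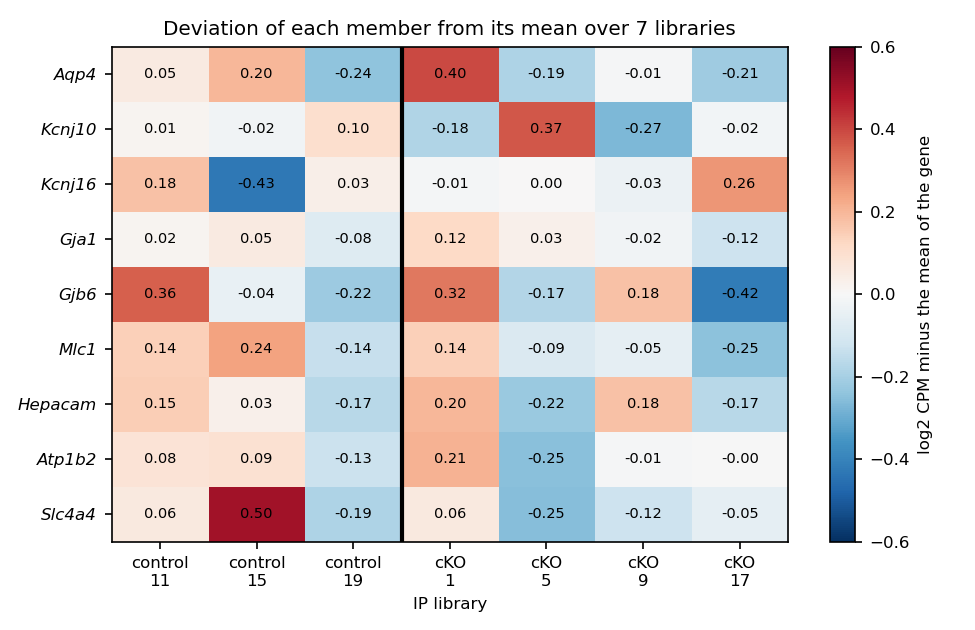
Log2 CPM of each gene minus its mean over the 7 IP libraries, controls left of the black line and cKO right of it (red above, blue below the mean). Libraries 1 and 11 are red and libraries 19 and 17 blue for most genes, whereas Kcnj10 (highest in library 5) and Kcnj16 (lowest in library 15) follow another order.

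Promoter windows (300 bases across an annotated start, most of them before it, RefSeq, GRCm38.p6) are shown for both Kir channel genes, and for Gja1 and Hepacam from among the other 7, as examples of genes with unlike values across these libraries. Windows of 7 of the 9 genes were searched, 11 in all, and for Kcnj16 the first of 4 is printed. Capitals mark matches on either strand to 4 motifs: TTGGCA, the core bound by nuclear factor I (NFI), TTCNNNGAA, bound by STAT factors, the GC box CCGCCC and the TATA box TATAAA.
Kcnj10, chr1:172340960-172341259, plus strand: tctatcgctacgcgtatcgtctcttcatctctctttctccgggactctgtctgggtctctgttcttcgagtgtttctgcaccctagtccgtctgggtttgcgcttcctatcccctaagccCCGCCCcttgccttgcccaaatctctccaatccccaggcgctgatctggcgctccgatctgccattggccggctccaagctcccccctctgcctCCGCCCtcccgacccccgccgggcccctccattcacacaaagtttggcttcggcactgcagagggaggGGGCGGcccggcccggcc
Kcnj16, chr11:110967783-110968082, plus strand: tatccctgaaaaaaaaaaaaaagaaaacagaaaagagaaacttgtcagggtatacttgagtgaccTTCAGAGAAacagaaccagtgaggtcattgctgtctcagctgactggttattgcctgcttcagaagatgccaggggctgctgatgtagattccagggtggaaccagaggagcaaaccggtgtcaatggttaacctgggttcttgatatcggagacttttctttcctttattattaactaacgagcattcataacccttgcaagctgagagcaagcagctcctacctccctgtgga
Gja1, chr10:56377050-56377349, plus strand: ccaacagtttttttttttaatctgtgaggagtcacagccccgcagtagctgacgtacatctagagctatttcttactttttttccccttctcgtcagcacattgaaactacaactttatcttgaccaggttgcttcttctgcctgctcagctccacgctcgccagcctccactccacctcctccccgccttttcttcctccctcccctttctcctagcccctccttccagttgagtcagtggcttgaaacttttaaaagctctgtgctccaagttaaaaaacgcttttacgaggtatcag
Hepacam, chr9:37367356-37367655, plus strand: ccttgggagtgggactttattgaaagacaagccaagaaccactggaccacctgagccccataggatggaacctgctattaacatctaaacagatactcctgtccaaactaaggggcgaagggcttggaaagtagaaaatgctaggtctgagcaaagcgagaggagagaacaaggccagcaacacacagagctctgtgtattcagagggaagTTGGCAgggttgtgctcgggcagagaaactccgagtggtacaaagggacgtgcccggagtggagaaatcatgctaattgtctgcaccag

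The Kcnj10 window had 3 GC boxes and a GC content of 63.7%, the Kcnj16 window a STAT match and 44.3%, the Hepacam window an NFI core and 50.7%, and the Gja1 window none of these letters and 47.7%. Among all 32851 windows of this length, 14.1% held the NFI core, 8.3% the STAT motif, 35.7% the GC box and 13.6% the TATA box. Of the 11 windows of these genes, 3 held the NFI core (in Hepacam and Kcnj16), 3 the GC box (in Kcnj10, Kcnj16 and Slc4a4), and 1 each the STAT motif and the TATA box (both in Kcnj16). The matches describe letters only, and no factor binding was measured.

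Ratios of partner genes within a library do not depend on how libraries are scaled. The connexin genes Gja1 and Gjb6 had a log2 ratio of counts of 0.22, 0.66 and 0.70 in control libraries 11, 15 and 19, and of 0.36, 0.77, 0.36 and 0.86 in cKO libraries 1, 5, 9 and 17. The ratio mostly mirrors Gjb6, its denominator, since Gja1 varied little, and its mean differed by 0.064 between them. For Kcnj10 to Kcnj16, the subunits of 1 channel, the log2 ratio was 1.05, 1.62 and 1.28 in the controls and 1.04, 1.58, 0.98 and 0.93 in cKO mice, a difference of -0.18. For Mlc1 to Hepacam it was 1.10, 1.31 and 1.13 in the controls and 1.04, 1.23, 0.87 and 1.02 in cKO mice, a difference of -0.14 with 3 of the 4 cKO libraries below all controls. Aqp4 to Kcnj10 spread from 0.050 in cKO library 5 to 1.19 in cKO library 1, and the controls, at 0.65, 0.83 and 0.27, lay inside that range. None of these 4 differences passed (exact two-sided permutation tests, lowest p = 0.286 for Mlc1 to Hepacam, adjusted over the 6 ratios computed p = 0.514). The smaller tail was doubled for the two-sided p, which for 3 against 4 libraries cannot then fall below 0.0571.

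**Figure D4:**
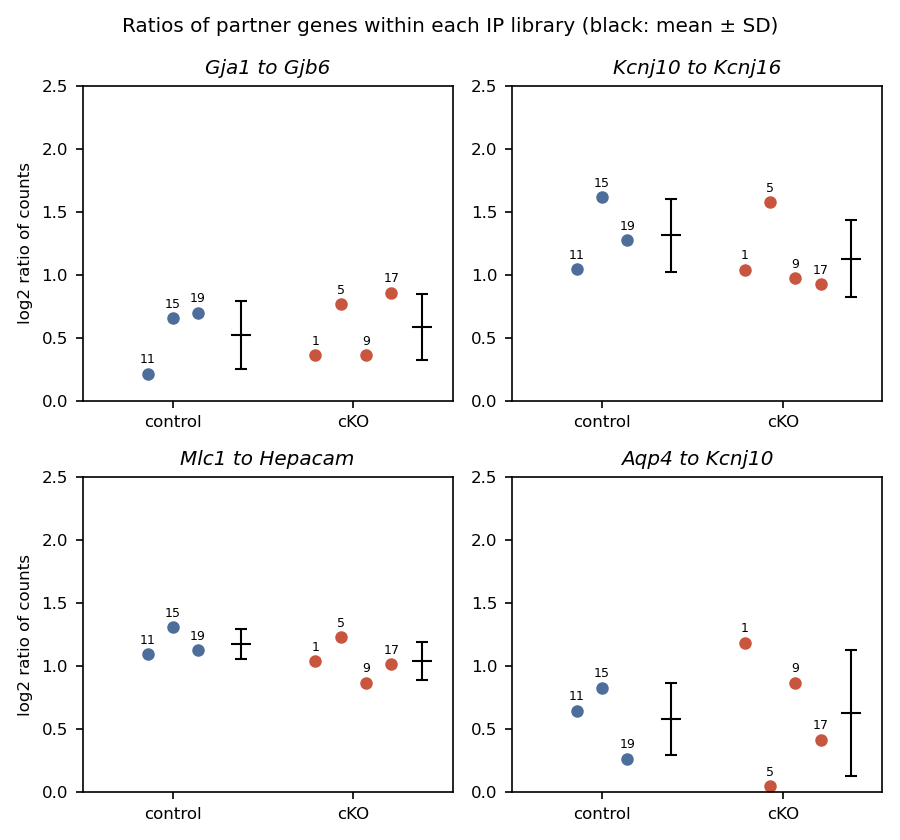
Log2 ratio of the counts of 2 partner genes within each IP library, for 4 pairs, with control libraries in blue, cKO libraries in red and mean ± SD of each group in black. The genotypes overlap in all 4 panels, and Aqp4 to Kcnj10 has the widest spread, from 0.050 to 1.19 among the cKO libraries.

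Further genes of the same functions were counted from 5 lists, 65 genes in all, of which 61 had enough counts. With edgeR's quasi-likelihood test 0 of 61 passed after adjustment over all genes, against the 0.0451% of all genes. An unadjusted p under 0.05 was found for 2 of the 61 and for 343 of the 13296 genes tested. None passed with edgeR's exact test or DESeq2. Of the 61 genes, 33 were higher and 28 lower in cKO mice, with a median log2 fold change of 0.043. For 4 of the 61 (6.56%) the genotypes did not overlap, where 5.11% of all genes tested did not.

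Among 19 genes of potassium handling, 9 were higher and 10 lower (median log2 fold change -0.014), between -0.76 and 0.33. Atp1b1, the beta 1 subunit of the pump, had 719 ± 86.6 CPM (SD, n = 3) in controls and 682 ± 110 CPM (SD, n = 4) in cKO mice, a difference smaller than either SD. Of the 15 tested genes of water and volume, 6 were higher and 9 lower (median -0.070). Gpr37l1, a receptor of glia that binds the MLC1 and GlialCAM complex, had 2668 ± 676 CPM in controls and 2379 ± 506 CPM in cKO mice, and Dtna, a dystrobrevin of the complex that holds aquaporin-4, had 308 ± 44.9 and 294 ± 11.1 CPM. Of the 7 tested gap junction genes, 2 were higher and 5 lower (median -0.16). Tjp1, which encodes the junction scaffold protein ZO-1, had a log2 fold change of -0.22 (SE 0.20). Gjb2, a further astrocytic connexin, had 10.6 ± 0.737 and 10.5 ± 3.26 CPM.

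Of the 12 acid-base genes, 8 were higher and 4 lower (median 0.092), with Car2, a carbonic anhydrase also found in oligodendrocytes, at 1282 ± 174 CPM in controls and 1339 ± 443 CPM in cKO mice. Car8, a relative without carbonic anhydrase activity, had 203 ± 23.4 and 234 ± 30.6 CPM. Of the 2 genes with an unadjusted p under 0.05, Car14, a membrane-bound carbonic anhydrase, is named after its values were seen. It had 2.01 ± 0.290 CPM in controls and 4.72 ± 1.26 CPM in cKO mice (log2 fold change 1.23, SE 0.45), and it did not pass after adjustment over all genes (adjusted p = 0.9996 in edgeR). Car14, Aqp11 and Slc8a3 were among the 4 genes without overlap, each higher in all 4 cKO libraries. All 8 genes of sodium and calcium transport had a positive log2 fold change (median 0.20), where 6955 of the 13296 genes tested had one. The changes of the 8 ran from 0.022 for Atp2b4 to 0.72 for Slc8a3, and none of them had an unadjusted p under 0.05. Slc8a3 had a low level, with means of 2.48 CPM in controls and 4.11 CPM in cKO mice (SE of the log2 fold change 0.48). Atp2b1 and Atp2b2, calcium pumps of the plasma membrane that neurons also express, had 214 ± 34.7 and 174 ± 31.1 CPM in controls and 224 ± 42.8 and 202 ± 76.2 CPM in cKO mice. Atp2b2 was highest in libraries 5 and 17 (273 and 263 CPM), where the neuronal markers were also high. The part of neuronal RNA in its level was not tested.

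**Figure D5:**
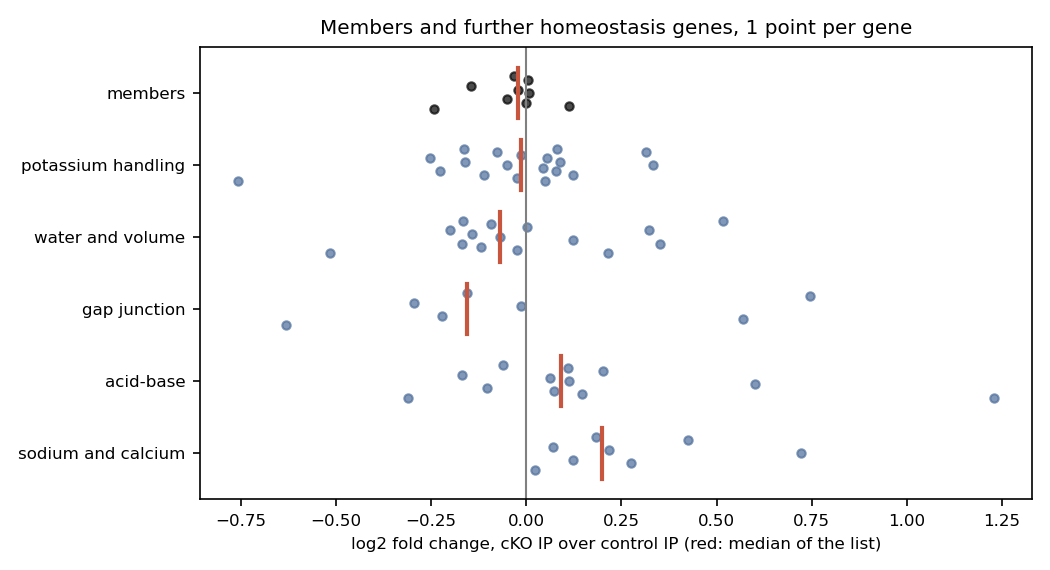
Log2 fold change of cKO IP over control IP for the 9 genes (black) and for the tested genes of 5 lists of related function (blue), 1 point per gene with the list's median in red and points spread vertically for visibility. The 9 genes lie between -0.24 and 0.11, inside the range of every list except that of sodium and calcium transport, and the point at 1.23 is Car14.

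The genes most like the mean profile of the 9 were Atp5f1 (Pearson's r = 0.98), Idi1 (0.98), Crot (0.98), Lpin2 (0.98), Gdi2 (0.98) and Atp5b (0.97), out of 8595 genes with a mean of at least 10 CPM. The likeness was taken over 7 libraries that share their scaling, and it is given as a description.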

How the data were processed

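RNA-seq libraries were made from cortical IP samples with the Smart-seq2 protocol. Per the submitters' processing notes, the reads were trimmed with cutadapt 1.15 and assigned with kallisto 0.44.0 (GRCm38; GENCODE vM17 in the study's methods), and the authors deposited estimated counts per gene symbol, without scaling for depth or length. The table has 18 columns named only by number. Of these, 7 bear a number that the study's source data give as a control or cKO IP sample. The other 11 columns were not used, so ratios of IP to input were not analysed here, and which animal gave a library is not known. The libraries were taken as the replicates, and p-values set the genotype difference against the variation between them.

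Counts were rounded, filtered with filterByExpr, scaled by TMM and compared between genotypes with edgeR 4.0.16 in R 4.3.3 (quasi-likelihood test, genotype as the only term, Benjamini-Hochberg adjustment over 13296 genes). The SE came from the quasi-likelihood F statistic. CPM are TMM-scaled, and log2 CPM used a prior count of 2. DESeq2 1.42.0, limma 3.58.1 (voom), other scalings, other filters, an oligodendrocyte marker term and leaving out each library were tried as alternatives. Ratios of partner genes were compared by exact two-sided permutation, with the smaller tail doubled. Genes named beyond the 9 were those of the wider lists that passed, the 2 with the largest mean CPM in each list, partners in the ratios, the 6 most like the mean profile and the targeted gene. Outside this rule, Car14, Aqp11, Slc8a3, Gjb2, Atp2b4 and single marker genes were named after their values were seen. Some genes of the lists and 2 of the 6 ratios are not reported here. The genes and lists were chosen with earlier results of these data known. Positions and promoter windows are those of RefSeq for GRCm38.p6.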

Additional observations from a re-analysis of the deposited data

Results flagged for a closer look

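Among the 4 cKO libraries, 16 sets of values (the CPM of each of the 9 genes, their sum and 6 ratios) were searched for a library far from the others, where chance gives 0.8. For Kcnj16, cKO library 17 had 223 CPM against 182 to 186 CPM in the other 3. Groups of 3 were not searched.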

How the results depend on the processing

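None of the 9 genes and none of the 61 wider list genes passed under any of the 10 alternatives or without any 1 library. Over all genes, edgeR's exact test called 18 (10 higher, 8 lower) and DESeq2 21 (13 and 8), against 6. With the oligodendrocyte term the median log2 fold change of the 9 genes was -0.21, with Aqp4 at -0.21, Gja1 at -0.028 and Kcnj10 at 0.20; the cause was not tested. Small log2 fold changes also turned sign, Aqp4 with limma voom (-8.56e-04) and upper quartile scaling (-0.0074), Gja1 with upper quartile scaling (-0.0067), Hepacam with library size only (0.0026), a filter of 1 CPM in 3 libraries (6.92e-04) and astrocyte marker scaling (0.030), and Kcnj10 (0.023) and Atp1b2 (0.012) with astrocyte marker scaling. As differences of medians, the ratios of Gja1 to Gjb6 and of Aqp4 to Kcnj10 were -0.091 and -0.0050.

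Without 1 library at a time, the log2 fold change ranged from -0.15 to 0.11 for Aqp4, -0.18 to 0.040 for Kcnj10, -0.048 to 0.24 for Kcnj16, -0.034 to 0.047 for Gja1, -0.17 to 0.13 for Gjb6, -0.25 to -0.066 for Mlc1, -0.083 to 0.073 for Hepacam, -0.10 to 0.051 for Atp1b2 and -0.39 to -0.029 for Slc4a4, and their median from -0.10 to 0.037. The ratio differences ranged from -0.090 to 0.15 (Gja1 to Gjb6), -0.33 to -0.031 (Kcnj10 to Kcnj16), -0.20 to -0.070 (Mlc1 to Hepacam) and -0.14 to 0.24 (Aqp4 to Kcnj10), and genes called from 4 to 6. No paired analysis was possible because the columns carry no replicate number. Of the 65 wider list genes, 4 had too few counts at this depth to be tested.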
